A study of Mus musculus with 6 samples.

Results

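Cytosolic ribosomal protein genes and their muscle or tissue paralogs were compared between sorted populations of mouse ventricular cardiomyocytes. The genes were taken by symbol: every row whose name follows the pattern of a large-subunit (Rpl), small-subunit (Rps, Rpsa) or P stalk (Rplp) gene, including names ending in the letters used for paralogs. This gave 83 of 23404 genes, of which 43 were large-subunit genes, 30 small-subunit genes, 3 P stalk genes and 7 paralogs. The pattern left out 11 genes of the S6 kinase family or of binding proteins and 6 pseudogene symbols. It also left out Rps3a1, which encodes a small-subunit protein, and Rps4y2, a copy of Rps4x. GENCODE M21 lists Rps4y2, under the name Rps4l, as a transcribed processed pseudogene.

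Polyadenylated RNA was sequenced from C57BL/6J cardiomyocytes sorted on green autofluorescence (FITC channel) and on forward scatter (FSC), which tracks the size of a particle. The FITChigh gate took bright FITC with dim FSC, and the FITCdim gate took dim FITC with high FSC. There were 3 libraries of each, which the series text calls biological replicates. No treatment, transgene or age is stated in the labels, and both populations share the strain and the cell type label.

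The cytosolic ribosome translates messenger RNA. Its small subunit reads the message, its large subunit joins the amino acids, and the P stalk recruits the factors that drive each step. Ribosomal protein messages are known to be made in coordinated amounts, and many begin with a cytosine followed by a run of pyrimidines, the TOP motif, through which mTOR signalling controls their translation. Striated muscle is known to express Rpl3l, a paralog that can take the place of Rpl3 near the catalytic centre of the large subunit, and Eef1a2, a muscle and neuron form of the elongation factor Eef1a1.

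Read totals, recovered from the deposited values, were 1705626 to 3346006 per FITCdim library and 1589825 to 2931045 per FITChigh library. Values are adjusted read counts, the deposited unit, in which 1 read was worth 0.607 to 1.54. The markers of the labelled cell type were abundant in both populations. The summed level of 15 cardiomyocyte markers was 479030 to 517032 in FITChigh and 312075 to 373218 in FITCdim. Of the 15, 4 were called higher in FITChigh (Cox6a2, Ckmt2, Tnni3 and Fabp3) and 0 lower. Myh6, a large part of that sum, was not called (159480 ± 13528 in FITChigh against 96706 ± 23944 in FITCdim, SD, n = 3). All 12 endothelial markers were lower in FITChigh, at a summed 741 to 1040 against 5370 to 5942. So were 8 of 8 tested fibroblast markers (106 to 137 against 576 to 1035), 7 of 9 pericyte and smooth muscle markers (median log2 fold change of the list -2.44), 9 of 9 tested macrophage and leukocyte markers (85.2 to 119.5 against 439 to 973) and 5 of 5 tested atrial markers (201 to 443 against 1141 to 2466). The summed pericyte and smooth muscle level, 1392 to 1849 against 1935 to 2549, is mostly Abcc9 in FITChigh, which was not called (1228 ± 263 against 1148 ± 252, SD, n = 3). In FITChigh no read fell on Tcf21, Fcgr1, Cd52 or the 4 erythroid markers found in the table. Of these 4 erythroid markers, 3 had no read in FITCdim either, Alas2 had 10 reads there, and 0 were tested. The marker differences move with the groups in every result given here, and their part in those results was not tested. In bulk samples, fewer cells of a type and less RNA per cell cannot be told apart.

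Few ribosomal protein genes differed between the populations beyond the spread of the libraries. Of the 83 members, 77 passed a filter on low values (at least 1 in at least 3 libraries). Of these 77, tested with limma-trend on log2(value + 1), 2 rose in FITChigh (Rplp2 and Rpl3l), 2 fell (Rpl3 and Rps23) and 73 did not pass an adjusted p of 0.05. The shares were 2.60% higher and 2.60% lower, beside 2.51% (324) and 13.5% (1748) of all 12907 tested genes. The median log2 fold change of the tested members was -0.00, beside -0.01 over all tested genes. Other genes at a mean level of at least 30 had higher medians where exons were short. Those medians were 0.35 under 1 kilobase of exon, 0.23 at 1 to 2 and 0.12 at 2 to 4. They were -0.003 at 4 to 8 kilobases and -0.07 at 8 or more. The middle of the distribution was narrower for the members, with quartiles of -0.11 and 0.12 against -0.47 and 0.25 over all tested genes. In 58 of the 77 the log2 fold change was smaller than 0.2 in size, and in 71 of them the 95% interval of the difference lay within 2-fold in either direction. That last share was 92.2%, beside 57.7% of all tested genes. All tested genes include any that reached 1 in 3 libraries, and no set of like level was drawn for the shares, widths or quartiles. The part of level in these widths and quartiles was not tested. Only 4 members (5.19%) had groups that did not overlap, 1 of them higher and 3 lower, beside 31.6% of all tested genes. Scaling each library to one common total moved the median of all tested genes to -0.20 and that of the members to -0.21, with 0 members higher and 5 lower beside 41 and 2189 of all tested genes. Quantile normalization moved the medians to 0.12 and -0.07, with 0 members higher and 1 lower beside 357 and 1163 of all tested genes.

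**Figure D1:**
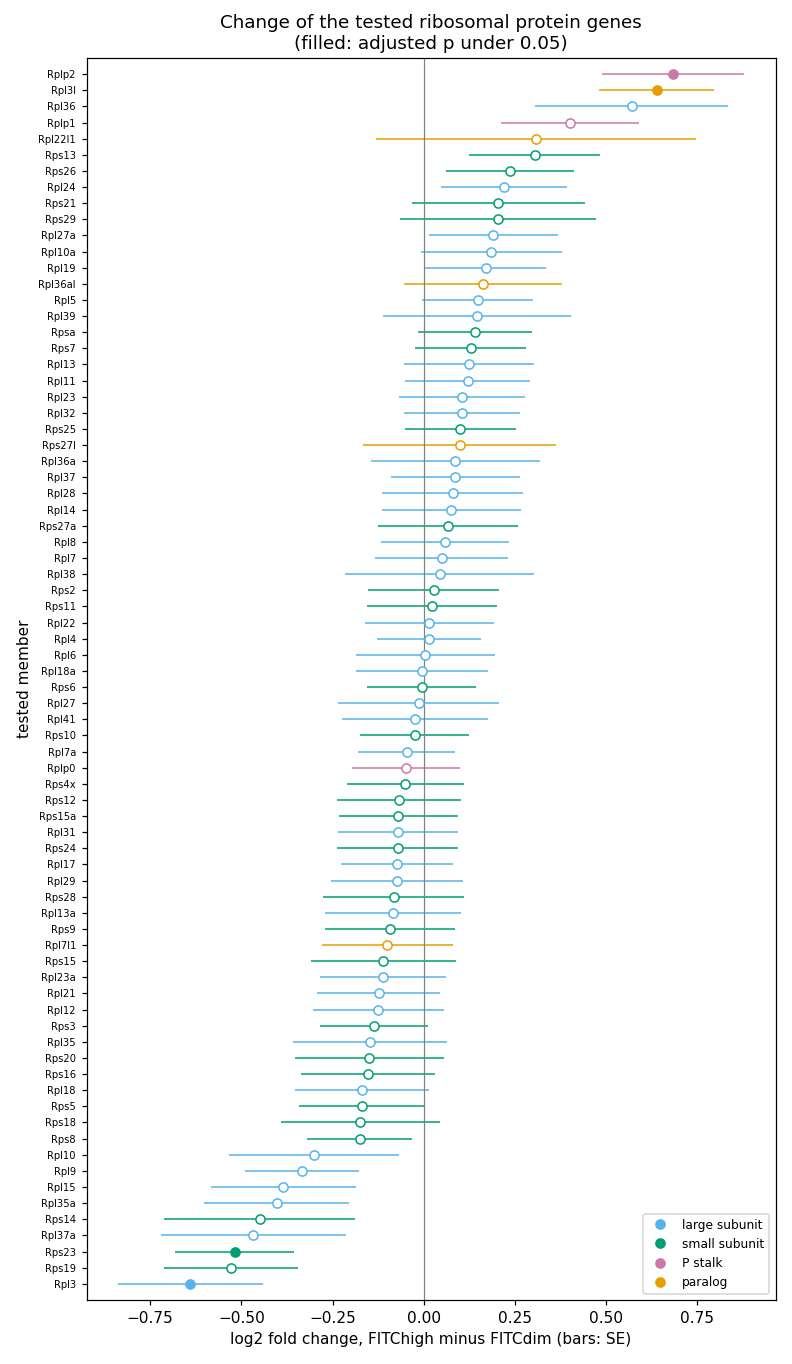
Log2 fold change (x axis, FITChigh minus FITCdim, limma-trend, bars show the standard error) of the tested members (y axis, 1 not shown), coloured by subunit, with filled points for an adjusted p under 0.05. Most points lie within 0.2 of 0, with Rplp2 and Rpl3l filled at the top and Rpl3 and Rps23 filled near the bottom.

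Rpl3 and its paralog Rpl3l moved in opposite directions. Rpl3 lies at chr15:80077791-80091868 on the minus strand and Rpl3l at chr17:24727820-24736143 on the plus strand (mm10). Their aligned coding sequences were identical at 73.9% of 1212 bases, and the longest stretch they share was 22 bases, shorter than a read of 75 bases. The first 150 coding bases show where the pair differs. They are printed 5′ to 3′ from the GENCODE transcripts of the same build, and capitals mark the 35 bases that differ between them.
Rpl3: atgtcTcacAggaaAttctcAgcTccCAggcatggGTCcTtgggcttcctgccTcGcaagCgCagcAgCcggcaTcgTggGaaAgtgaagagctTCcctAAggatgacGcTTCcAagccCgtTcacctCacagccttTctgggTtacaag
Rpl3l: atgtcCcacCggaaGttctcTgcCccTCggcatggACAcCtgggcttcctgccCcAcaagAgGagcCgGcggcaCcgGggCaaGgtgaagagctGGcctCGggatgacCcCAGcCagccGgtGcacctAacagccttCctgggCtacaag

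Rpl3l read 614, 778 and 679 in FITCdim replicates 1, 2 and 3 and 956, 1374 and 933 in FITChigh replicates 1, 2 and 3. Every FITChigh library was above every FITCdim library. Rpl3l rose by 0.64 on the log2 scale (SE 0.16, adjusted p = 0.010 by limma-trend), from 690 ± 82.4 to 1088 ± 248 (SD, n = 3 libraries each). The call held in each of the 6 fits that left out 1 library, and was lost with one common total (0.44, adjusted p = 0.059), with quantile normalization (0.44, adjusted p = 0.064) and in limma without the variance trend (adjusted p = 0.118).

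Rpl3 read 189.0, 241.4 and 154.5 in FITCdim and 138.5, 144.5 and 92.2 in FITChigh, in the same order of replicates. The groups did not overlap, with FITCdim the higher, although FITCdim replicate 3 and FITChigh replicate 2 lay close together. Rpl3 fell by 0.64 on the log2 scale (SE 0.20, adjusted p = 0.038 by limma-trend), from 195 ± 43.7 to 125 ± 28.6 (SD, n = 3). This call depended on single libraries. It was lost without FITChigh replicate 1 (adjusted p = 0.056), FITChigh replicate 3 (0.153), FITCdim replicate 1 (0.074) or FITCdim replicate 2 (0.147), without both replicates numbered 2 (0.073), with quantile normalization (0.056) and in limma without the trend (0.183). The direction was the same in all 17 alternatives, though those that change only the filter, variance trend or block leave the log2 fold change as it is.

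Per library, the ratio of Rpl3l to Rpl3 was 3.25, 3.22 and 4.39 in FITCdim and 6.90, 9.50 and 10.1 in FITChigh. The 2 groups of ratios were well apart, with the lowest FITChigh ratio above the highest FITCdim ratio. Mean ratios were 3.62 ± 0.668 and 8.84 ± 1.71 (SD, n = 3), a log2 difference of 1.28 or 2.43-fold. The exact two-sided permutation test gave p = 0.1, the smallest that 3 libraries against 3 allow, and 0.4 after Benjamini-Hochberg adjustment over 8 pairs, so this test cannot pass 0.05 here. A ratio within a library does not depend on a scaling factor of that library. The difference was 1.17 to 1.45 when single libraries were left out, and 1.14 without both replicates numbered 2.

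Divided by exon length, Rpl3l had more of the counted reads of the pair than Rpl3 in all 6 libraries. Of the 75-base words of Rpl3, 83.2% also occur in other annotated genes, against 0% for Rpl3l. How such reads were counted is not stated, so the level of Rpl3 relative to Rpl3l, and to other members, is uncertain. Rpl3l took 73.3%, 73.1% and 78.8% of the pair's length-adjusted reads in FITCdim and 85.4%, 88.9% and 89.5% in FITChigh. The means were 75.1% ± 3.21 and 87.9% ± 2.25 (SD, n = 3). Among tested members, Rpl3l ranked 16 by level per kilobase in FITCdim and 8 in FITChigh, while Rpl3 ranked 60 and 66. The sum of both genes per kilobase was 576 ± 77.5 in FITCdim and 773 ± 169 in FITChigh (exact two-sided permutation test, p = 0.2).

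**Figure D2:**
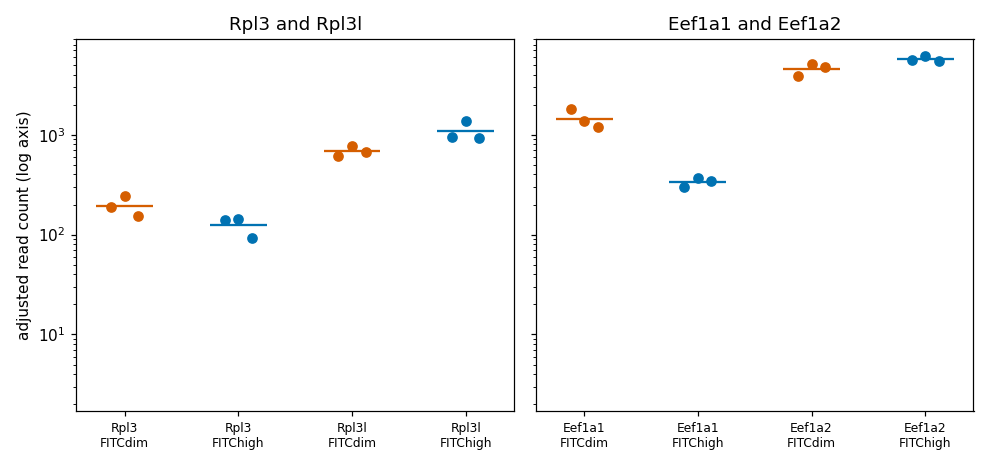
Adjusted read count (y axis, log axis) of Rpl3 and Rpl3l and, for comparison, of the elongation factors Eef1a1 and Eef1a2, with 1 point per library and a line at each group mean. Rpl3 and Eef1a1 are lower and Rpl3l is higher in the 3 FITChigh libraries than in the 3 FITCdim libraries.

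In the other 4 ribosomal pairs with enough reads the ratios of the groups overlapped. Rpl7l1, a paralog of Rpl7, was at a ratio of 0.160 ± 0.0353 in FITCdim and 0.144 ± 0.0303 in FITChigh (exact permutation p = 0.5, n = 3 each). Rpl36al and Rpl36a, which encode nearly the same protein, stood at similar read counts, with ratios of 0.900 ± 0.365 and 0.907 ± 0.134 (exact permutation p = 0.9, n = 3). Divided by exon length, Rpl36al took 23.8% ± 7.28 of the pair's reads in FITCdim and 24.4% ± 2.69 in FITChigh (SD). Of the 75-base words of Rpl36a, 84.6% also occur in other annotated genes, against 23.3% for Rpl36al, so their relative level is uncertain. Rpl22l1, the paralog of Rpl22, was scarce, at 51 reads over the 6 libraries, and its ratio was 0.0379 ± 0.0215 against 0.0441 ± 0.00938 (exact permutation p = 0.6, n = 3). Rps4y2 to Rps4x was 0.0570 ± 0.0132 against 0.0723 ± 0.0282 (exact permutation p = 0.5, n = 3). Tests with 3 libraries a group cannot show that the ratios are alike.

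Pairs with too few reads gave no ratio. Rpl10l had 0 reads, Rpl39l had 2 reads against 222 for Rpl39, and Rps27 had 2 reads against 337 for Rps27l. Rps27l itself was 63.5, 62.6 and 31.5 in FITCdim and 48.6, 64.8 and 49.1 in FITChigh, so its groups overlapped (log2 fold change 0.10, SE 0.26, adjusted p = 0.853 by limma-trend).

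**Figure D3:**
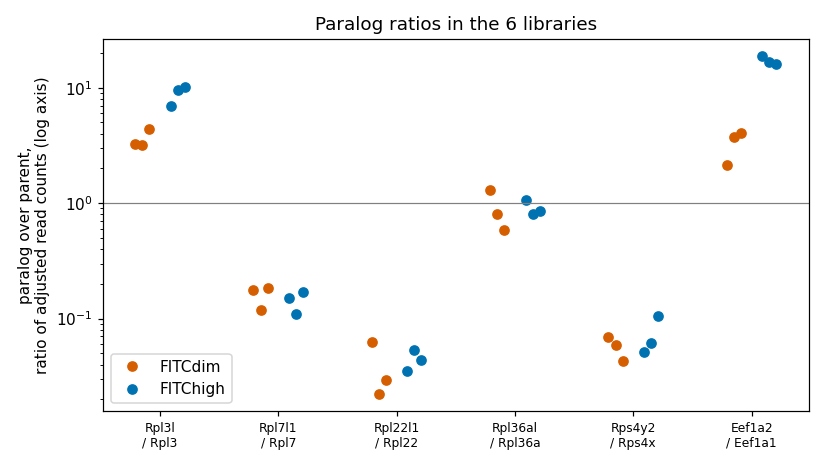
Ratio of paralog to parent gene in adjusted read counts (y axis, log axis) for 6 pairs (x axis), 1 point per library and colours for the populations. The Rpl3l to Rpl3 and Eef1a2 to Eef1a1 ratios are higher in all FITChigh libraries, and the points of the other 4 pairs overlap.

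The elongation factor pair, outside the ribosomal genes, also had ratios that did not overlap. Eef1a1, the widely expressed factor that brings aminoacyl tRNA to the ribosome, read 1794, 1368 and 1191 in FITCdim and 297, 369 and 341 in FITChigh. The groups were far apart, and Eef1a1 fell by 2.09 on the log2 scale (SE 0.16, adjusted p = 1.9e-07 by limma-trend), a call kept in all 17 alternatives. Eef1a2 read 3830, 5142 and 4816 in FITCdim and 5611, 6170 and 5465 in FITChigh, without overlap, and the difference of 0.33 on the log2 scale did not pass (SE 0.16, adjusted p = 0.182). With quantile normalization that difference was -0.07. The ratio of Eef1a2 to Eef1a1 was 3.31 ± 1.03 in FITCdim and 17.2 ± 1.5 in FITChigh (log2 difference 2.43, exact permutation p = 0.1, adjusted 0.4 over 8 pairs, n = 3). Per kilobase, the sum of the 2 factors was 3014 ± 199 and 2946 ± 193 (exact permutation p = 0.6, n = 3). Of the 75-base words of Eef1a1, 41.7% also occur in other annotated genes, against 0% for Eef1a2. How such reads were counted is not stated, so the level of Eef1a1 relative to Eef1a2, and this sum, are uncertain.

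Among the P stalk genes, Rplp2 rose and the other 2 did not pass the test. Rplp2, which pairs with Rplp1 in the stalk, read 142, 227 and 131 in FITCdim and 265, 301 and 221 in FITChigh. FITCdim replicate 2 lay above the lowest FITChigh library, so the groups overlapped. Rplp2 rose by 0.68 on the log2 scale (SE 0.19, adjusted p = 0.023 by limma-trend). The call was lost without FITChigh replicate 1 (adjusted p = 0.082) or 2 (0.084), without FITCdim replicate 1 (0.084) or 3 (0.077), and with one common total (0.099), quantile normalization (0.059) or limma without the trend (0.159).

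Rplp1 read 308, 607 and 458 in FITCdim and 614, 581 and 555 in FITChigh. FITCdim replicate 2 was among the high values, and the log2 fold change of 0.40 did not pass (SE 0.19, adjusted p = 0.179). Rplp1 was called without FITCdim replicate 2 (0.63, adjusted p = 0.014) and without both replicates numbered 2 (0.63, adjusted p = 0.019). Rplp0, the stalk's base, was 896 ± 69.7 and 876 ± 172 (SD, n = 3), a log2 fold change of -0.05 with a 95% interval of -0.36 to 0.27.

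In the RefSeq promoter table of the same build the annotated start of Rplp2 carries the letters described for TOP messages. The start windows of Rplp2 (chr7:141447641-141447670, plus strand) and of Rpl3l (chr17:24727816-24727845, plus strand, 1 of 2 listed starts) hold 10 bases before the annotated start and 20 from it on. They are shown because these are the 2 members that rose, and capitals mark a C with at least 4 further C or T bases.
Rplp2: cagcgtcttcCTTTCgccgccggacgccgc
Rpl3l: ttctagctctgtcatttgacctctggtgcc

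A C at most 2 bases from the start with such a run after it (the sense strand alone was read) was found in 21 of the 63 members in that table (33.3%), beside 10.6% of its 27025 genes. Of the 7 paralogs only Rps27l had it. Rpl3 and 19 other members are not in that table and were not analysed here in this respect. Annotated starts can differ from the starts used in these cells by several bases, so a missing match says only that these letters are not in this window.

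In the small subunit, 29 of 30 genes were tested, and 0 were called higher and 1 lower, beside 2.51% higher and 13.5% lower over all tested genes. The median log2 fold change was -0.07, against -0.01 over all tested genes. Rps23, a protein of the decoding centre, read 176, 204 and 177 in FITCdim and 136, 149 and 106 in FITChigh. Every FITChigh library was below every FITCdim library, and Rps23 fell by 0.52 on the log2 scale (SE 0.16, adjusted p = 0.040 by limma-trend). The call was lost without FITChigh replicate 1 (adjusted p = 0.086) or 3 (0.152) and without any 1 of the FITCdim libraries (0.054 to 0.136). It was also lost without both replicates numbered 2 (0.069) and in limma without the trend (0.149).

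Rps19, a gene mutated in Diamond-Blackfan anaemia, also had groups that did not overlap, at 122 to 150 in FITCdim and 76.6 to 119 in FITChigh, but did not pass (log2 fold change -0.53, SE 0.18, adjusted p = 0.063). With one common total (-0.73, adjusted p = 0.0085), with limma-voom on recovered reads (0.044) and without FITChigh replicate 2 (0.016) Rps19 was called. It was named after its values were seen. Rps6, the substrate of the S6 kinases, was 277 ± 6.33 and 279 ± 52.6 (SD, n = 3), a log2 fold change of -0.01 with a 95% interval of -0.32 to 0.31. Rpsa, also known as the laminin receptor, was 1083 ± 140 and 1203 ± 242, a log2 fold change of 0.14 (adjusted p = 0.618). Rps27a, made as a fusion with ubiquitin, was 186 ± 53.8 and 190 ± 26.8 (log2 fold change 0.07).

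In the large subunit, 40 of 43 genes were tested, and 0 were called higher and 1, Rpl3, lower, beside the same 2.51% and 13.5%. The median log2 fold change was 0.01. Rpl5 and Rpl11, which bind the 5S RNA and can restrain Mdm2, were 336 ± 34.0 and 372 ± 75.9 in FITCdim and 376 ± 67.3 and 405 ± 78.0 in FITChigh (log2 fold changes 0.15 and 0.12, adjusted p = 0.580 and 0.701). Rpl10, which completes the maturing subunit, was 219 ± 59.98 and 180 ± 64.3 (log2 fold change -0.30, adjusted p = 0.444). The 6 tested genes of the rim of the peptide exit tunnel gave no call in either direction, with a median of -0.07. Rpl36, named after its values were seen, read 69.7, 153 and 117 in FITCdim and 163, 224 and 114 in FITChigh. Its log2 fold change was 0.57, the groups overlapped, and it did not pass (SE 0.26, adjusted p = 0.172). Rpl36 was called without FITCdim replicate 2 (0.82, adjusted p = 0.025) and with the title tag as a replicate block (0.031).

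The summed level of all 83 members was 22474, 28097 and 22688 in FITCdim and 23266, 31169 and 20802 in FITChigh. Each group held 1 high library, replicate 2, and the groups overlapped (exact two-sided permutation test, p = 0.8). As a share of each library's total the members took 1.11%, 1.33% and 1.07% in FITCdim and 0.958%, 1.28% and 0.891% in FITChigh (exact permutation p = 0.4). The sums of the 2 subunits kept a nearly constant proportion, 1.29 ± 0.0454 large over small in FITCdim and 1.30 ± 0.0345 in FITChigh (exact permutation p = 0.8, n = 3).

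Within both groups most members were highest in the same library, replicate 2. FITChigh replicate 2 was the highest of its group for 72 of 77 tested members, beside 34.4% of all tested genes, and FITCdim replicate 2 for 63 of 77, beside 30.6%. For 58 members both held. These 2 libraries have the fewest reads of their groups. The median member deviated by 0.32 log2 units in FITChigh replicate 2 and by 0.24 in FITCdim replicate 2 from its group mean. Other genes with under 1 kilobase of exon, at a mean level of at least 30, deviated by 0.27 and 0.24 there, and those of 8 kilobases or more by -0.16 in both. Exon length moved with the same libraries, and its part in the values of the members was not tested. Between the populations, those other short genes had a median log2 fold change of 0.35, while the members' median was -0.00.

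**Figure D4:**
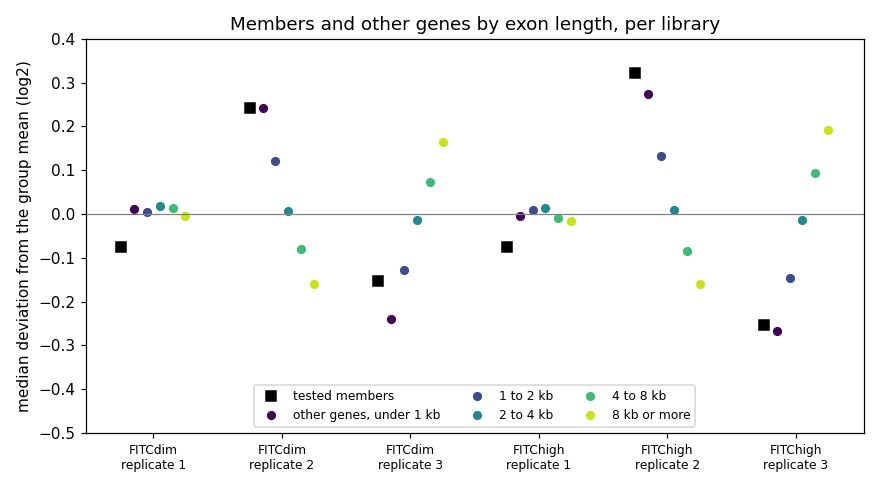
Median deviation from the group mean (y axis, log2) in each library (x axis) for the tested members (squares) and for other genes in 5 classes of exon length (circles). Members and short genes are high in replicate 2 of both groups and low in replicate 3, and the longest genes run the other way.

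Divided by exon length, the 72 tested members other than paralogs spread over a wide range of levels, which both populations shared. The lowest, median and highest were 34.2, 249 and 1267 adjusted read counts per kilobase in FITCdim and 32.7, 248 and 1309 in FITChigh. Across genes, the log2 levels of the 2 populations correlated at r = 0.982, a description of genes that share libraries and lengths and are not independent replicates. Rps2, Rplp1, Rpl4 and Rps15 were among the highest. Rps2 stood at 1267 ± 219 and 1309 ± 365 per kilobase and Rplp1 at 918 ± 299 and 1169 ± 58.8 (SD, n = 3). The 5 lowest tested members were Rpl18, Rps20, Rps15a and the paralogs Rpl7l1 and Rpl22l1. Rps15a and Rps20 have long annotated exons (5.39 and 3.71 kilobases), by which their counts are divided.

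**Figure D5:**
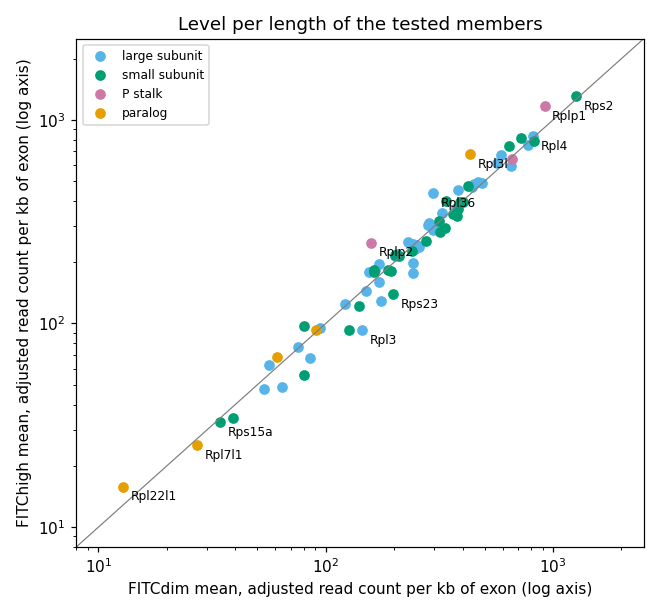
Mean adjusted read count per kilobase of exon in FITChigh (y axis, log axis) against FITCdim (x axis, log axis) for the 77 tested members, coloured by subunit, with a line of equality. Points follow the line from Rpl22l1 to Rps2, with Rpl3l and Rplp2 above it and Rpl3 and Rps23 below it.

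The other 6 members had values too low to be tested. Rpl10l, Rpl26 and Rpl30 are listed at 0 in every library, and Rpl34, Rps27 and Rpl39l had 3, 2 and 2 reads in all. Rpl26, Rpl30, Rpl34 and Rps27 belong to the ribosome of every cell, so these entries are given only as listed, with no level drawn from them. Many ribosomal protein genes have near-identical copies elsewhere in the genome. The share of 75-base words of the longest transcript found in another annotated gene was 35.5% for Rpl26, 24.5% for Rpl30, 4.92% for Rpl34 and 60.7% for Rps27. It was 35.5% at the median of the 77 tested members, 83.2% for Rpl3 and 0% for Rpl3l. How the authors' counting treated such reads is not stated, so levels of members with copies are uncertain in that respect.

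The following ribosome components outside the symbol rule did not pass either. Fau, which encodes a ribosomal protein fused to a ubiquitin-like part, had a log2 fold change of -0.18. Gnb2l1 (Rack1), a scaffold on the small subunit, had one of -0.12, and Rps3a1 one of -0.05. Of 12 other messages of the TOP class 1 was lower, Vim, an intermediate filament gene of non-muscle cells (log2 fold change -2.64, SE 0.20, adjusted p = 2.0e-07). Tpt1, among the most abundant TOP messages, was 1572 ± 238 and 1645 ± 322 (log2 fold change 0.06, adjusted p = 0.855). Of 9 elongation factors Eef1a1 was the 1 called, while Eef2 differed by 0.16 on the log2 scale (adjusted p = 0.498).

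Of 23 initiation factors 1 was called, Eif4e, the cap-binding protein, at 342 ± 50.5 in FITCdim and 476 ± 13.0 in FITChigh (log2 fold change 0.49, SE 0.14, adjusted p = 0.022 by limma-trend). The call of Eif4e was lost with one common total (0.28, adjusted p = 0.192), quantile normalization (0.070) or limma without the trend (0.137). It was also lost without FITChigh replicate 1 (0.091) or 2 (0.0501), without FITCdim replicate 1 (0.127) or 2 (0.073), and without both replicates numbered 2 (0.105). None of 24 ribosome assembly genes and none of 13 genes of mTOR signalling and TOP control was called. Over all tested genes 2.51% were called higher and 13.5% lower. The medians of these 3 lists were 0.17, 0.17 and 0.16, beside -0.01 over all tested genes. Genes other than members at a mean level of at least 30 had medians from 0.35 (under 1 kilobase of exon) to -0.07 (8 or more). No set of like level and length was drawn for these lists.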

How the data were processed

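RNA of 6 sorted samples was sequenced as paired reads of 75 bases from stranded mRNA libraries, per the labels' protocols. STAR 2.5, edgeR and the build mm10 are named in the submitters' processing notes. Not given in the sources used here are the counting program, the annotation and whether strand was used. The deposited signal values, 1 per gene in each library, are read counts that the authors adjusted towards equal library sizes. Of 23410 gene lines 6 were garbled and left out. Whole reads were recovered by undoing the adjustment as negative binomial quantiles (dispersion 0.0203). At least 99.99% of values in each library came out whole within 0.1, and they were used for depth and 1 alternative.

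The 12907 genes that reached 1 in 3 or more libraries were put on the log2(value + 1) scale and tested with limma 3.58.1 under R 4.3.3 (limma-trend, two-sided, no block, Benjamini-Hochberg over all tested genes, threshold 0.05). The p-values reflect the spread of these libraries alone. Replicate numbers follow accession order. Single values per library were compared by exact permutation over 20 assignments. A ratio was reported where both genes had at least 10 reads in all, a minimum set after values were seen, but adjustment ran over the 8 pairs with any read in both. Rps4y2 stands for Rps4l, which is its synonym in RefSeq. Positions and exon lengths come from GENCODE M21. Exon length classes, shared 75-base words, counts of intervals within 2-fold and the fit without both replicates numbered 2 were added after seeing the data. The members and lists were chosen with earlier results of these data known.

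Named genes are the paralog pairs, a fixed set (Rplp0, Rplp1, Rplp2, Rpsa, Rps6, Rpl5, Rpl11, Rpl10, Rps27a, Fau, Gnb2l1, Eef2 and Tpt1 among them), up to 6 rises and 6 falls past the test, the 5 highest and 5 lowest per kilobase, and up to 3 genes per further list. Some genes that this rule takes are not reported here. On simulated reads (13056 genes, 200 changed) the test recovered 64% of 2-fold and 95% of 4-fold changes, and 4.2% of its calls were false. The simulation gave every gene the same dispersion and no shift of libraries with exon length, so these rates need not hold for the data. Alternatives were other pseudocounts (0.5 and 5), filters, scalings and variance models, limma-voom on recovered reads, a block and leaving out libraries.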

Additional observations from a re-analysis of the deposited data

How the results depend on the processing

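Members called higher, 2 as reported, were 0 with one common total, 0 with quantile normalization, 0 in limma without the trend and 1 to 4 when single libraries were left out. Members called lower, also 2, were 5 with one common total, 1 with quantile normalization, 0 in limma without the trend, 0 without both replicates numbered 2, and 0 to 4 when single libraries were left out. Over all tested genes, the 324 higher calls were 41 with one common total, 69 in limma without the trend, 177 without both replicates numbered 2, and 67 to 341 when single libraries were left out. The 1748 lower calls were 1163 with quantile normalization and 1152 to 1672 when single libraries were left out. The fits that left out libraries also had fewer samples, and the cause of the changed counts was not tested. Pseudocounts, filters, robust limma and limma-voom changed none of these counts by over 1.5 times. Rpl3, Rpl3l, Rps23 and Rplp2 had the same direction in all 17 alternatives and were called in 10, 14, 10 and 10 of them. Filters, robust limma, limma without the trend and the block leave the log2 fold change of a gene as it is, so they do not test its direction.

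Libraries of the 2 groups share title tags. Over all tested genes their deviations correlated at 0.071, 0.125 and 0.175 for equal tags and at -0.122 to -0.008 for unequal ones, so over all tested genes each library correlated best with its own tag. Over the 77 members this did not hold, with -0.235, -0.005 and 0.071 for equal tags. Such a correlation leaves out a shift that the members of a library share. That shift did go together for equal tags. The median member deviated by -0.075, 0.32 and -0.25 in FITChigh replicates 1, 2 and 3 and by -0.075, 0.24 and -0.15 in FITCdim. These are hints from the data and not from the design, and 1 correlation over all tested genes is under 0.1, so the tags were not taken as pairs. With the tag as a replicate block, 3 members were higher and 8 lower, and 1064 and 2059 of all tested genes. Rps19 (adjusted p = 0.0089), Rpl36 (0.031) and Eef1a2 (0.017), not called in the report, were called with it. That block leaves the log2 difference of the Rpl3l to Rpl3 ratio at 1.28 by design, since both groups hold the same tags. With 3 libraries a group and 1589825 to 3346006 reads each, the median 95% interval of a member reached 0.38 log2 units to either side.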
